A study of Mus musculus with 4 samples.

Results

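The loci examined were those of the 4 mouse Tcf/Lef genes, Lef1, Tcf7, Tcf7l1 and Tcf7l2, in a list of Flag-Sp5 peaks from chromatin immunoprecipitation followed by sequencing (ChIP-seq). A peak was taken as a member when its midpoint lay in 1 of 4 windows fixed on the mm9 build, whatever its width. The windows ran on chromosome 3 from 130760000 to 130980000 (Lef1, 220 kb), on chromosome 11 from 52015000 to 52147000 (Tcf7, 132 kb), on chromosome 6 from 72525000 to 72790000 (Tcf7l1, 265 kb) and on chromosome 19 from 55765000 to 56060000 (Tcf7l2, 295 kb). They held 9 of the 9428 listed peaks, 4 at Lef1, 3 at Tcf7l1, 2 at Tcf7l2 and 0 at Tcf7. A window is a stretch of chromosome named after the gene for which it was chosen, and a peak in it is not thereby assigned to that gene.

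All 4 libraries came from A2Lox.cre embryonic stem cells, a mouse line that accepts an inserted cDNA under a doxycycline-inducible promoter, here Flag-tagged Sp5. The cells were grown as embryoid bodies, doxycycline was given from day 2 for 24 h, and chromatin was fixed on day 3. The groups were 2 Flag-Sp5 libraries, precipitated with the M2 antibody against Flag, and 2 input libraries without antibody, and the treatment label of the inputs also gives doxycycline. No Flag precipitate from cells without Flag-Sp5 was among them, so binding and antibody background cannot be told apart, and the protein mapped was the induced, tagged one. The deposited list gives a chromosome, start and end per peak for the series as a whole. Peak heights, scores, read counts and values per library are not part of it, so the depth is unknown and no replicate error exists for any value here.

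Tcf/Lef proteins are the DNA-binding partners through which Wnt signalling reaches its target genes. Without a Wnt signal they sit on DNA with Groucho/TLE co-repressors, and when β-catenin accumulates it binds them and recruits activators. They share an HMG-box DNA-binding domain that reads the core CTTTGA. Tcf7l1 is known mainly as a repressor in mouse embryonic stem cells, Lef1 and Tcf7 mainly as activators, and Tcf7l2 can act in either way. Sp5 is a zinc-finger protein of the SP/KLF family, which binds GC-rich boxes with the core GGGCGG, and is itself a Wnt target expressed in the primitive streak.

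For orientation, the sequence before the outermost entry of the 3 genes whose windows held peaks is shown, from RefSeq on GRCm38.p6, 5′ to 3′ on the strand of the gene. Lef1 and Tcf7l2 lie on the plus strand and Tcf7l1 on the minus strand. The entries hold 250 bases, and the Tcf7l2 entry is cut to the 237 that precede the outermost start of that gene. Capitals mark the GC box, GGGCGG or CCGCCC on the other strand, with overlapping matches joined.
Lef1: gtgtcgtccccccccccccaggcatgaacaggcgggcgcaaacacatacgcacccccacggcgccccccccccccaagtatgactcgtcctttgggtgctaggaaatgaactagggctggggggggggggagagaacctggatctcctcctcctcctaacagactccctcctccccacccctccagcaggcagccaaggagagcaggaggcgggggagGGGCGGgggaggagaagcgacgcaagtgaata
Tcf7l1: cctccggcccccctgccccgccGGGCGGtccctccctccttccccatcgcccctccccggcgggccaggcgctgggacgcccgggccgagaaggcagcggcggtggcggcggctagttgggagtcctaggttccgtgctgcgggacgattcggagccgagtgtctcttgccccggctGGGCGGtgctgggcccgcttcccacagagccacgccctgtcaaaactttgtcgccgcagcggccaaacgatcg
Tcf7l2: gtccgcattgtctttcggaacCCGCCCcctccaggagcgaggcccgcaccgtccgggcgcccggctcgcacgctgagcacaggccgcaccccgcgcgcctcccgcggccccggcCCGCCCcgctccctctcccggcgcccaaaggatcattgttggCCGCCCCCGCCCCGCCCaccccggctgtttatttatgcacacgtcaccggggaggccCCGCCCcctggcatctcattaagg

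The Lef1 stretch held 1 GC box, the Tcf7l1 stretch 2 and the Tcf7l2 stretch 6. At least 1 GC box was present in 32.7% of the 32851 RefSeq stretches of 250 bases searched in the same way, at least 2 in 16.7% and at least 6 in 0.886%. Those stretches were not matched for base content. In the 250 bases of the Lef1, Tcf7l1 and Tcf7l2 entries, 66.4%, 73.6% and 72.8% were G or C. The Tcf/Lef core CTTTGA, or TCAAAG on the other strand, was in none of the 3 stretches and in 13.8% of all. The longer Tcf/Lef site CCTTTGATC, or GATCAAAGG, was in none of the 3 and in 0.256% of all. Other RefSeq entries for these genes start further inside them and are not printed. Of the 4 Lef1 entries, 3 held 1 GC box each, but the first 2 entries overlap and share the same box. The fourth held no GC box but 2 Tcf/Lef cores, as 1.37% of all stretches held 2 or more. The second Tcf7l2 entry held neither motif. The 2 entries for Tcf7 both start inside the gene and held 2 GC boxes and 1 GC box, with no Tcf/Lef core. GC boxes were thus not limited to genes whose windows held peaks. These matches are letters of a reference on another build than the peaks, and whether a listed peak covers any of the 3 stretches was not analysed here. No sequence of the peaks themselves was used here.

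Lef1, the gene of lymphoid enhancer-binding factor, had the most peaks. The first ran on chromosome 3 from 130786712 to 130786995 and was 284 bp wide. The second followed from 130787579 to 130787932 and, at 354 bp, was the widest of all 9 peaks. These 2 peaks were a close pair, with midpoints 0.902 kb apart and 583 bp between their edges. The third, from 130813113 to 130813280, measured 168 bp and lay 25.4 kb further on. The fourth, from 130846303 to 130846490, measured 188 bp and lay another 33.2 kb on. The group thus spanned 59.5 kb from first to last midpoint. It held 2 peaks wider than the list median of 195 bp followed by 2 below that median, the last only slightly.

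The surroundings of the Lef1 group were empty in the list. The previous peak on the chromosome, from 129254927 to 129255153, was 1532 kb before the first, and the next, from 131395438 to 131395602, was 549 kb after the last. The 4 peaks were therefore the only ones in a 2.14 Mb stretch. The peak-free stretch before the group was the longest at this locus. Stretches of at least that length made up 2.76% of the 435 between neighbouring peaks of chromosome 3, whose median was 179 kb. That stretch was picked as the longest in or beside the window, which by construction favours a low share. Neither the 220 kb before the window nor the 220 kb after it held a peak. In the RefSeq order of protein-coding genes, Lef1 is flanked by Ostc and Rpl34 on one side and by Hadh and Cyp2u1 on the other.

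Tcf7l1, whose product is known to repress Wnt targets and pluripotency genes in embryonic stem cells, had 3 peaks on chromosome 6. The first ran from 72627565 to 72627853 and was 289 bp wide. The second, from 72739119 to 72739336, measured 218 bp and stood 112 kb from the first. The third, from 72750720 to 72750938, measured 219 bp and lay 11.6 kb beyond the second. All 3 were wider than the list median of 195 bp, as were 49.6% of all listed peaks. Unlike the Lef1 group, the Tcf7l1 peaks did not stand alone, since 1 peak lay in the 265 kb before the window and 4 in the 265 kb after it. The nearest of these were 184 kb before and 83.5 kb after the window edges. The longest peak-free stretch in or beside the window was 286 kb, and 32.7% of the stretches on chromosome 6 were at least as long. The genes next to Tcf7l1 in the RefSeq order are Retsat and Tgoln1 on one side and Kcmf1 and Tmsb10 on the other.

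Tcf7l2, a widely expressed member best known from the intestinal epithelium, had 2 peaks on chromosome 19. The first, from 55815875 to 55816108, was 234 bp wide, and the second, from 56000361 to 56000518, was 158 bp wide and the narrowest of all 9. They lay 184 kb apart, so each was far from any other peak. The first stood 152 kb from the peak before it, and the second stood 817 kb before the next one. Those 817 kb were the longest peak-free stretch in or beside the window. Stretches at least as long made up 4.74% of the 253 on chromosome 19. In the RefSeq gene order, Tcf7l2 is flanked by Zdhhc6 and Vti1a on one side and by Habp2 and Nrap on the other.

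Tcf7, the gene of T-cell factor 1 and a Wnt effector of lymphoid and early embryonic cells, had no peak in its window. The peak-free stretch around it ran from 51817875 to 52174312, between midpoints 357 kb apart. Stretches of that length or more made up 13.0% of the 682 on chromosome 11, whose median was 83.8 kb. An empty window of 132 kb lies by construction in a longer stretch, and 55.1% of such windows on chromosome 11 held no peak. The nearest peak, from 52174313 to 52174453, was 141 bp wide, the smallest width in the list, and its midpoint was 27.4 kb outside the window edge on the 5′ side of Tcf7, where Vdac1 is the next gene. On the other side the nearest peak was 197 kb from the window edge, and there the next genes are Skp1 and Olfr1371. The 132 kb after the window held 3 peaks and the 132 kb before it none. A position without a listed peak did not pass the authors' threshold, which is unknown here, and this is not a measurement of absent binding.

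**Figure D1:**
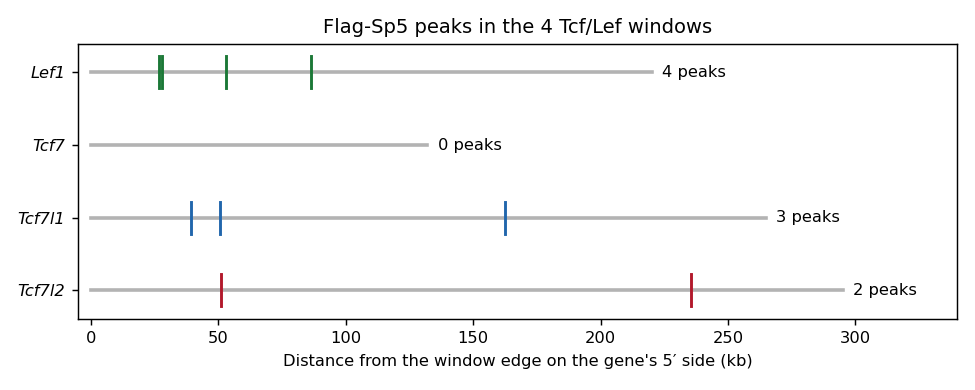
Positions of the 9 Flag-Sp5 peaks, drawn from left to right along each gene's own direction. The x axis is the distance in kb from the window edge on the 5′ side of the gene, grey lines are the windows and each coloured tick is the midpoint of 1 peak. A peak stands between 50.8 and 53.2 kb at Lef1, Tcf7l1 and Tcf7l2, limits taken from these peaks after they were seen. The Tcf7 line is empty.

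Counted from the window edge on the 5′ side of each gene, 7 of the 9 peaks lay in the first 50% of their window. All 4 Lef1 peaks, with the close pair, were among these 7, and the share in other windows was not computed. At Lef1 the distances from that edge were 26.9, 27.8, 53.2 and 86.4 kb. At Tcf7l1, on the minus strand, they were 39.2, 50.8 and 162 kb, and at Tcf7l2 they were 51.0 and 235 kb. Each of the 3 windows with peaks thus held 1 peak between 50.8 and 53.2 kb from that edge, a pattern that was looked for after the values were seen. The rule that set the windows does not say how they were placed around the genes. If they were drawn to begin 50 kb before the genes, peaks at this distance would lie near the transcription starts. No mm9 annotation was used here, and the distance of these peaks from a start was not analysed.

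Peak density followed the same order as the counts, except that among peaks wider than the list median Lef1, with 2, fell behind Tcf7l1, with 3, at a density ratio of 0.803. Lef1 had 1.82 peaks per 100 kb (exact 95% Poisson interval 0.495 to 4.66), Tcf7l1 had 1.13 (0.233 to 3.31) and Tcf7l2 had 0.678 (0.0821 to 2.45). These intervals overlap widely, and they cover counting error of independent peaks only. The density ratio of Lef1 to Tcf7l2 was 2.68 (exact 95% interval 0.384 to 29.6), that of Lef1 to Tcf7l1 was 1.61 (0.272 to 11.0) and that of Tcf7l1 to Tcf7l2 was 1.67 (0.191 to 19.99). None of the 6 pairs of loci passed a two-sided exact conditional binomial test, with the smallest p = 0.304 for Lef1 against Tcf7 and the smallest Benjamini-Hochberg adjusted p = 0.851 over the 6 pairs. With 9 peaks in all, differences in density between the 4 loci were not detectable, and the intervals do not show that the loci are alike. Neighbouring peaks are not independent, so these p-values and intervals are too small and too narrow.

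Against its own chromosome the Lef1 count was high. Chromosome 3 had 0.279 peaks per 100 kb between its first and last peak, which gives 0.615 peaks for 220 kb, and Lef1 had 6.51 times that number (Poisson interval 1.77 to 16.7). The Tcf7l1 count was 3.49 times the 0.860 peaks that the density of chromosome 6 gives (interval 0.719 to 10.2). The Tcf7l2 count was 1.53 times the 1.30 peaks that chromosome 19 gives (interval 0.186 to 5.54). For the Tcf7 window the density of chromosome 11, which is 0.576 peaks per 100 kb, gives 0.761 peaks, and the list had none. The 4 windows together had 9 peaks in 912 kb, or 0.987 per 100 kb (interval 0.451 to 1.87), against 3.54 from the 4 chromosome densities, a ratio of 2.54 (interval 1.16 to 4.83). All these intervals treat peaks as independent, which neighbouring peaks are not, so they are too narrow. Windows of 220 kb on chromosome 3 held a mean of 0.611 peaks with an SD of 1.08, a wider spread than independent peaks give. The close Lef1 pair also supplied 2 of the 9 peaks, and an interval above 1 does not establish an excess here. These ratios set windows chosen for a gene against chromosomes that also contain long gene-poor stretches. What other gene loci give was not analysed here.

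The spread along a chromosome was read from windows of the same length, moved in steps of 10 kb from the first to the last peak. Of the 15583 windows of 220 kb on chromosome 3, 2.06% held at least 4 peaks, as many as Lef1, and 61.1% held none. Of the 14612 windows of 265 kb on chromosome 6, 8.86% held at least 3 peaks, as many as Tcf7l1. On chromosome 19, 31.5% of the 5721 windows of 295 kb held at least 2 peaks, as many as Tcf7l2. On chromosome 11, 55.1% of the 11841 windows of 132 kb held no peak, as did the Tcf7 window. The Tcf7l2 count and the empty Tcf7 window were thus common values for their chromosomes, while few windows matched Lef1. Overlapping windows share peaks, and these shares are descriptions without a test.

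**Figure D2:**
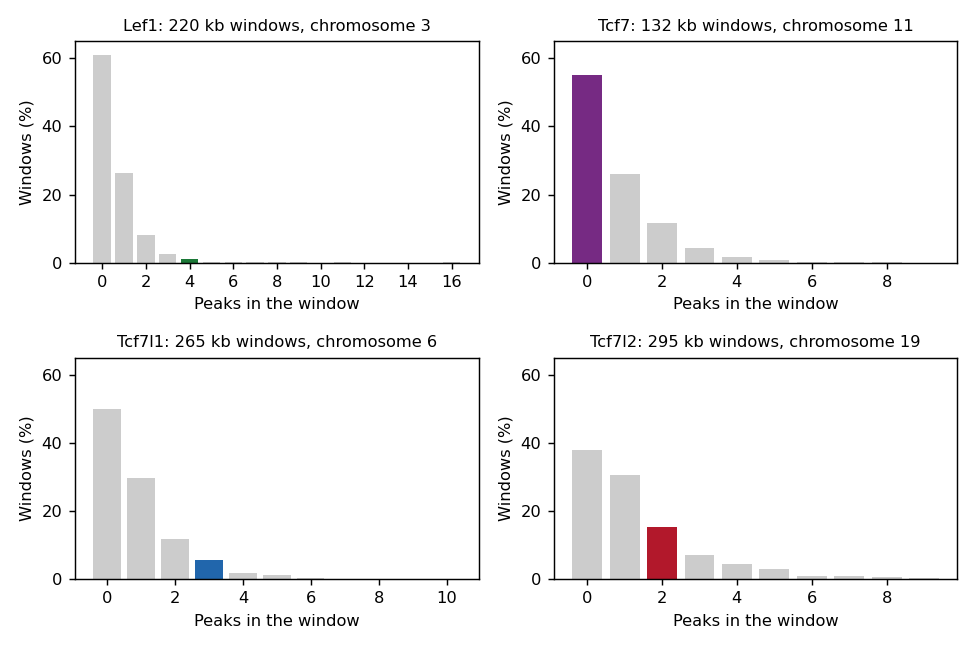
Share of same-size windows (y axis, in percent) by the number of peaks they hold (x axis), on the chromosome of each locus. The coloured bar is the count of the locus itself: 4 peaks for Lef1, in the thin tail of chromosome 3, and 0 for Tcf7, the tallest bar of chromosome 11.

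These shares depended on which windows and peaks were counted. With peaks less than 1 kb apart merged throughout, the close pair counted once and 3.90% of windows on chromosome 3 held at least the 3 peaks then left at Lef1. With only windows that held at least 1 peak, the share with 4 or more was 5.30%, and with windows centred on each peak of chromosome 3 it was 18.1%. For Tcf7l1 the same settings gave 17.6% and 37.1%, and for Tcf7l2 they gave 50.7% and 76.8%. Both of these settings leave out peak-free windows by construction, which raises the shares, so the rise is not a result about the loci. Windows centred on the peaks of the locus itself were counted among the centred ones.

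The same windows were laid on each of the 20 chromosomes. The share with at least 4 peaks in 220 kb ran from 0.305% on X to 8.39% on chromosome 11, with 4.16% over all chromosomes together, so chromosome 3 was among the sparser ones at rank 17 of 20. At least 3 peaks in 265 kb were found in 1.23% of windows on X and 21.8% on chromosome 11, and in 11.4% over all. At least 2 peaks in 295 kb were found in 5.28% of windows on X and 41.8% on chromosome 11, and in 26.2% over all. Windows of 132 kb without a peak made up 89.1% of X and 68.7% of all chromosomes. Their share was lowest on chromosome 11, the chromosome of Tcf7 itself.

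**Figure D3:**
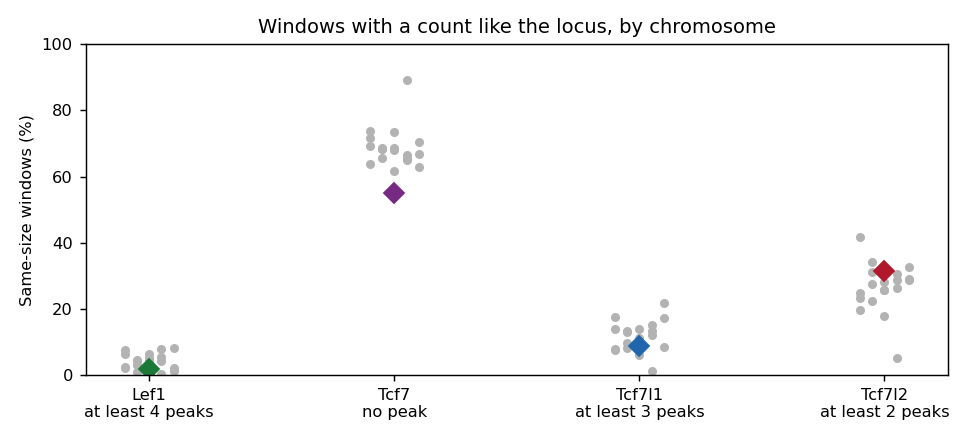
Share of same-size windows (y axis, in percent) that hold at least as many peaks as Lef1, Tcf7l1 or Tcf7l2, or no peak as Tcf7. Each grey point is 1 of the other 19 chromosomes and the diamond is the chromosome of the locus, at 2.06% for Lef1, 55.1% for Tcf7, 8.86% for Tcf7l1 and 31.5% for Tcf7l2.

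The compactness of each group was compared with runs of neighbouring peaks. Each group lay within its window by construction, so its span could not exceed the window length. The runs along the chromosomes had no such limit, which favours low shares for the groups. The shares below therefore partly restate the window counts, and they cannot show compactness beyond those counts. Of the 433 runs of 4 neighbouring peaks on chromosome 3, 4.16% spanned no more than the 59.5 kb of the Lef1 group, and 4.56% of the 9368 runs of 4 on all chromosomes did so. Of the 473 runs of 3 on chromosome 6, 14.6% spanned no more than the 123 kb of the Tcf7l1 peaks, and 25.1% of the 9388 runs on all chromosomes did. The 2 Tcf7l2 peaks were spaced more widely than most, and 64.4% of the 253 neighbouring pairs on chromosome 19 lay as close or closer, as did 62% of the 9408 on all chromosomes.

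Listed widths ran from 141 to 1407 bp, with 99.5% of them at or below 604 bp. The 9 peaks ran from 158 to 354 bp with a median of 219 bp, against 195 bp for the list. They averaged 235 ± 63.9 bp (SD, 9 peaks). The widest, the second Lef1 peak, was wider than 92.6% of the list, and the narrowest, the second Tcf7l2 peak, was wider than 22.3% of it. The first Lef1 and first Tcf7l1 peaks, at 284 and 289 bp, were wider than 82.9% and 84.0% of the list. In all, 6 of the 9 peaks exceeded the list median, 2 of 4 at Lef1, 3 of 3 at Tcf7l1 and 1 of 2 at Tcf7l2. None had the smallest listed width of 141 bp, which 677 peaks shared. Widths are those of the called intervals and do not measure how much protein was bound.

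Ranked against the list, spacing and width both spread widely among the 9 peaks. Both peaks of the Lef1 pair, 2 of the 9, had a neighbour within 1 kb, against 7.63% of the list. They are each other's neighbour and so count 1 pair, and the 1 kb limit, just above their 0.902 kb, was not planned. No excess can be read from this. The same 2 peaks were the only ones of the 9 with a neighbour within 10 kb, a share near the 23.8% of the list. The 2 neighbouring Tcf7l1 peaks, 11.6 kb apart, were nearer to each other than 74.4% of listed peaks are to their nearest neighbour. The Tcf7l2 peaks, with nearest neighbours at 152 and 184 kb, were at the other end, and 77.3% and 81.2% of the list had a nearer neighbour. The median nearest-neighbour distance was 25.4 kb over the 9 peaks and 46.9 kb over the list.

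**Figure D4:**
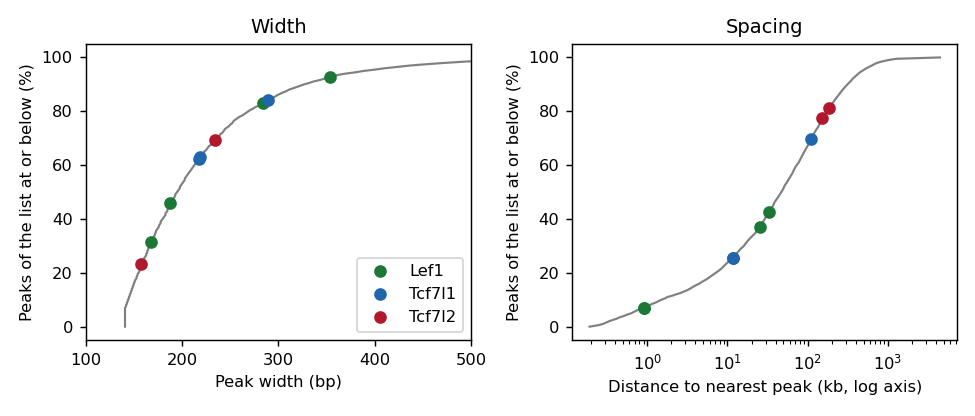
Width in bp (left) and distance to the nearest peak in kb on a log axis (right) of the 9 peaks, as coloured points on the grey cumulative curve of all 9428 listed peaks. The y axis is the percent of listed peaks at or below the value. Widths spread along the curve from 158 to 354 bp, and the distances run from 0.902 kb at Lef1, where both peaks of the pair share 1 point, to 184 kb at Tcf7l2.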

How the data were processed

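Flag-Sp5 ChIP (2 libraries) and input chromatin (2 libraries) were made from day 3 embryoid bodies. Per the labels' protocols, chromatin was fixed for 15 min in 1% formaldehyde and sheared to about 100 to 300 bp, and 4 µg of antibody were used per precipitation. The authors deposited 1 peak list with 3 columns of coordinates. The submitters' processing notes name the build mm9 and the tools Bowtie, Picard, MACS2 and HOMER, but no roles or versions. How libraries were pooled and which threshold was set is not stated there, and the labels do not say whether libraries came from separate cultures.

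The windows and gene names were given with earlier results of these data known. All peaks in the windows are named, with up to 2 protein-coding neighbours on each side, whose order is from RefSeq GRCm38.p6. Coordinates are printed 1-based and distances are between midpoints. Counts and exact tests were computed in Python 3.11.15 with SciPy 1.17.1. Counting was tested on simulated lists. The planned motif search in peaks was not run without an mm9 genome, and promoters were searched instead, a choice made after the data were seen. The planned comparison of protein sequences was also not run.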

Additional observations from a re-analysis of the deposited data

How the results depend on the processing

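The peak counts at the 4 loci were recomputed under 6 alternatives. Merging peaks less than 500 bp apart, windows shortened by 25 kb and assignment by any overlap changed no count. Windows lengthened by 50 kb changed only that of Tcf7, to 1 peak. Merging peaks less than 1 kb apart, chosen after the close pair was seen, left 3 at Lef1 and changed no other count. Among peaks wider than the median, Lef1 had 2, Tcf7l2 had 1 and Tcf7l1 had 3, which turned the Lef1 to Tcf7l1 density ratio to 0.803. No density ratio passed the threshold under any alternative (smallest adjusted p = 0.848, exact binomial test), and among the 5 pairs whose ratio has a value no other changed direction. The pair of Lef1 and Tcf7 has a ratio only in the lengthened windows, where it was 2.90. The share of windows with as many peaks as Lef1 was 4.16% on all chromosomes, 3.90% after merging within 1 kb, 4.17% for peaks wider than the median, 5.30% for windows with at least 1 peak and 18.1% for windows centred on peaks. For Tcf7l1 it was 17.6%, 37.1% and, for wide peaks, 2.87%, and for Tcf7l2 50.7%, 76.8% and 39.9%, in the order windows with at least 1 peak, centred windows and wide peaks. Windows without a peak, as at Tcf7, made up 68.7% on all chromosomes and 71.3% for wide peaks; at least 0 peaks holds for every window. The cause of these shifts was not tested, except that peak-free windows are left out by construction in the last 2 window settings. No paired analysis was possible because values per library are not part of the list, and leaving out a replicate was likewise not possible.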

Other observations

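The Lef1 group was both compact and isolated, a combination chosen for a count after its values were seen. When the list was divided wherever neighbouring midpoints were at least 500 kb apart, it fell into 1407 groups with such a stretch on both sides. Of these, 5 held at least 4 peaks within 100 kb, and 2 of the 5 were on chromosome 3, the Lef1 group being 1 of them. Its place among the 5 follows from limits set after its values were seen. No minimum number of peaks was set for the 1407 groups. The Lef1 group and 2 others of the 5 lay in stretches of at least 2.14 Mb that held no other peak.

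In the 2 Mb centred on each window the list held 6 peaks at Lef1, 12 at Tcf7, 9 at Tcf7l1 and 6 at Tcf7l2, or 0.300, 0.600, 0.450 and 0.300 per 100 kb. Their whole chromosomes had 0.279, 0.576, 0.324 and 0.442 per 100 kb in the same order, so the 2 Mb around the empty Tcf7 window was not poor in peaks for chromosome 11. Of the 6 peaks around Lef1, 4 were those of the window itself.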
